A study of Bos taurus with 16 samples.

Results

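Molecular chaperones and genes of the endoplasmic reticulum (ER) stress response were followed through bovine endometrium and blastocysts. The set was chosen by gene symbol: every probe set (a group of probes that reads 1 transcript) whose single symbol starts with HSP and a letter or digit, DNAJ, PDIA, SEC61, or CCT and a digit, together with HERPUD1, SYVN1, XBP1, ATF4, ATF6, DDIT3, CALR and CANX. It took in 104 of 24016 probe sets, for 67 of the 9155 genes that could be named. No probe set carried XBP1, ATF6 or PDIA6 as its only symbol. The prefix also admitted HSPG2, which encodes the matrix proteoglycan perlecan and is no chaperone, and the HSP70 or small heat shock protein partners HSPBP1 and HSPBAP1.

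Chaperones bind unfolded proteins and help them reach their final shape. Proteins bound for secretion or for the cell surface enter the ER through the SEC61 channel, where HSPA5 (BiP), HSP90B1 (GRP94), the lectin chaperones calnexin and calreticulin and the protein disulfide isomerases fold them. When folding falls behind, the unfolded protein response raises these genes, slows translation and, through HERPUD1 and the ubiquitin ligase SYVN1, sends misfolded proteins for degradation. In the cytosol the same work falls to the HSP70 and HSP90 families with their J-protein partners and to the ring-shaped CCT chaperonin. The uterine epithelium is a secretory tissue whose output changes through the oestrous cycle.

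The series drew on 49 superovulated cows whose endometrium was brushed with a cytobrush 2 h before insemination (day 0) and again just before the uterus was flushed (day 7). A brush sample without polymorphonuclear cells counted as healthy endometrium (HE), and any above 0 put it under subclinical endometritis (SE). RNA was pooled by status: 3 HE and 3 SE pools on day 0, and 2 HE and 3 SE pools on day 7. Blastocysts flushed on day 7 were pooled by the status of the donor at flushing, 10 to a pool, giving 2 HE and 3 SE pools. All cows were superovulated and all pools went through 2 rounds of amplification from 15 ng of RNA, so no group shows an unstimulated cycle. Cows per endometrial pool, and whether a cow entered pools on both days, are not given in the sources used here. The p-values therefore measure the spread between pools, not between cows.

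Values are deposited log2 signals from Affymetrix bovine arrays. A signal compares 1 probe set between samples, and levels of different probe sets, or of endometrium and blastocysts, were not compared. Probe sets of 1 gene are told apart by their mean signal over the arrays of a tissue, as brighter or dimmer, which serves only as a name. Testing required a log2 signal over 4 in no fewer than 2 arrays of that tissue. In endometrium 82 of the 104 member probe sets passed, for 60 genes, and in blastocysts 75 passed, for 58 genes. Genes that passed in both tissues numbered 56. DNAJB2, DNAJC12 and the small heat shock protein genes HSPB6 and HSPB8 passed in endometrium alone, and DNAJC6 and HSPB3 in blastocysts alone. DNAJC22, DNAJC27, HSPA12B, HSPB2 and HSPG2 passed in neither. "Rose" and "fell" are used below for an adjusted p under 0.05 in limma's moderated test, fitted on all tested probe sets with Benjamini-Hochberg adjustment.

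Endometrium arrays had 12303 to 12471 probe sets above the filter and blastocyst arrays 10823 to 10877. Epithelial markers were well represented: 9 of 10 passed in endometrium (KRT18, KRT19, EPCAM and CDH1 among them) and KRT8 did not. Their mean log2 level was 11.07 to 11.24 over the day 0 HE pools, 11.24 to 11.63 in day 0 SE, 9.86 to 10.00 in day 7 HE and 9.53 to 9.67 in day 7 SE. Between the days 6 of the 9 fell and 1 rose in HE, and 8 fell and 1 rose in SE. Of 6 endothelial markers only CLDN5 passed, at 2.35 to 2.42 on day 0 and 4.90 to 7.20 on day 7. It passed through day 7 alone, and PECAM1, CDH5, VWF, TEK and KDR did not pass, so no change in endothelium is read from it. Macrophage and dendritic cell markers (9 of 9 passed) had mean levels of 5.26 to 5.92 on day 0 and 5.55 to 6.72 on day 7. Of 11 lymphocyte and plasma cell markers measured, the 6 that passed were CD3D, CD3E, CD2, LCK, ZAP70 and JCHAIN, while MZB1, POU2AF1, CD79A, MS4A1 and GZMB did not. The 6 had mean levels of 5.87 to 6.23 in day 0 HE, 6.25 to 7.06 in day 0 SE, 6.84 to 7.29 in day 7 HE and 5.86 to 7.90 in day 7 SE, and 3 of them rose in each health group. Neutrophil markers (5 of 9 passed) had mean levels of 7.15 to 8.98 in day 0 HE and 9.003 to 10.74 in day 0 SE. Their day 7 levels were 6.80 to 8.06 in HE and 7.30 to 8.16 in SE. Between the days 1 fell and 1 rose in HE (median difference -0.52), and 2 fell and 1 rose in SE (-2.92). The median difference of ciliated cell markers (4 of 5 passed) was 0.23 in HE and -1.03 in SE. For stromal markers (9 of 10 passed) it was 0.12 and -0.08. Immediate-early genes, which handling of tissue can induce (16 of 17 passed), had mean levels of 8.86 to 9.15 in day 0 HE and 7.76 to 9.62 in day 7 HE, and of 9.01 to 9.36 in day 0 SE and 7.58 to 8.02 in day 7 SE. The 3′ minus 5′ log2 difference of the GAPDH control probe sets, a measure of how complete the labelled RNA is, was 0.056 to 0.141 in day 0 HE and 0.273 to 0.389 in day 7 HE, with 0.0264 to 0.578 in day 0 SE and 0.215 to 0.574 in day 7 SE. In HE the same difference overlapped between the days for the eIF4E control (3.70 to 3.85 and 3.67 to 3.91). It also overlapped for cyclophilin (0.645 to 0.980 and 0.846 to 1.23). For actin it was just lower on day 7 (-0.442 to -0.343 and -0.447 to -0.443), the opposite of GAPDH. Pools thus differed in cell markers between the days, and the HE pools in GAPDH but not alike in the other controls. In bulk RNA, fewer cells of a type and less RNA per cell cannot be told apart, and the part of these shifts in the results that follow was not tested.

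Between insemination and day 7 the protein disulfide isomerases, the HSP90 family with its ER member HSP90B1, calreticulin, HERPUD1 and 5 CCT genes fell in the endometrium of both health groups, while SYVN1, CANX, DDIT3, SEC61A2 and HSPA2 rose. In HE 28 of the 82 member probe sets fell and 12 rose, against 23.2% lower and 21.8% higher over all 13421 tested (34.1% and 14.6% of members). In SE 30 fell and 14 rose, against 24.1% and 26% over all (36.6% and 17.1% of members). The counts of rises in both groups include DNAJB5 and the dimmest SEC61A2 probe set. Both passed the filter only through day 7 pools, so the filter favoured a rise and their calls add no support. The median member difference was -0.28 in HE and -0.23 in SE, where all probe sets had medians of -0.03 and 0.01. These contrasts share no array, but both come from 1 fit with a shared estimate of spread. Of the members, 25 fell in both, which is 89.3% of the HE list and 83.3% of the SE list, and 11 rose in both, 91.7% and 78.6%. No member was called in opposite directions, 76 of 82 had the same sign, and 34 were called in neither. The same overlap was not counted over all probe sets, so nothing particular to the members is read from it. Whichever single array was left out, 27 of the 40 HE calls (17 lower, 10 higher) and 34 of the 44 SE calls (24 lower, 10 higher) were kept. Leaving out a day 7 HE pool leaves 1 there, which is then assumed to vary like the other groups.

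**Figure D1:**
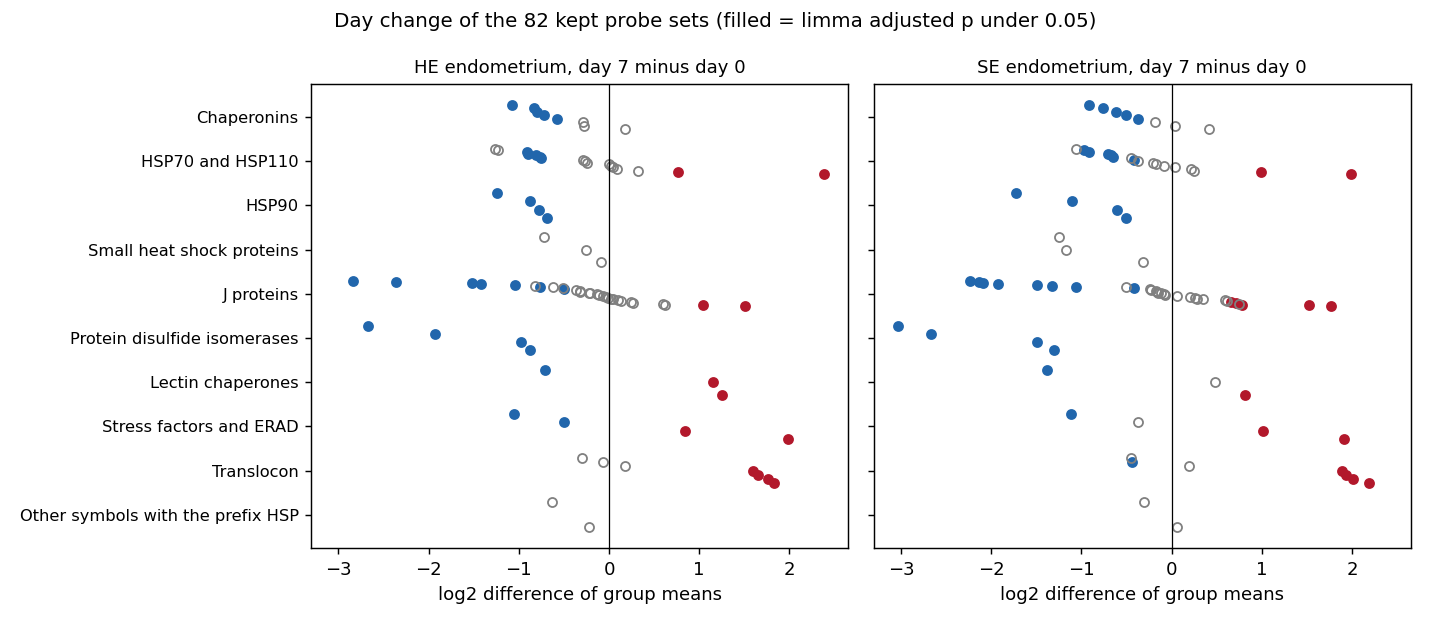
Day 7 minus day 0 log2 difference of each tested member probe set, by family, in HE and SE endometrium, with filled points for those past an adjusted p of 0.05. All 4 HSP90 and all 4 protein disulfide isomerase points lie below 0 in both groups, and the small heat shock proteins hold no filled point. The translocon holds 4 filled SEC61A2 points above 0, with its other points between -0.45 and 0.20. The dimmest SEC61A2 probe set and DNAJB5 passed the filter only through day 7 pools.

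The protein disulfide isomerases form and rearrange disulfide bonds in secreted proteins, and all 4 of their tested probe sets fell on day 7 in both HE and SE. PDIA5 read 8.61, 8.91 and 8.33 in day 0 HE and 8.88, 9.04 and 8.15 in day 0 SE. On day 7 it read 5.87 and 6.02 in HE and 5.70, 5.49 and 5.79 in SE. Every day 7 pool lay below every day 0 pool, and the day 7 SE pools lay just below the day 7 HE pools. The difference was -2.68 ± 0.27 (limma's standard error; adjusted p = 3.24e-05) in HE and -3.03 ± 0.24 (adjusted p = 4.99e-06) in SE, an 8.17-fold decrease in the latter.

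PDIA4 (ERp72) was read by its dimmer probe set at 9.20, 9.05 and 8.81 in day 0 HE and 9.11, 8.74 and 8.79 in day 0 SE. On day 7 it was at 6.46 and 7.72 in HE and 5.78, 6.06 and 6.78 in SE. The day 7 HE pools stood further apart than any other group's, and the day 7 groups overlapped. PDIA4 fell by 1.93 (adjusted p = 0.00212 in limma) in HE and by 2.67 (adjusted p = 0.000105) in SE. Its brighter probe set fell by 0.97 and 1.49, and the HE call was lost without pool 1 of day 7 HE (-0.73, adjusted p = 0.0815). PDIA3 (ERp57), the partner of the lectin chaperones, was within 13.46 and 13.50 in the 3 day 0 HE pools and at 12.44 and 12.75 in day 7 HE. It fell by 0.88 in HE (adjusted p = 0.00512 in limma) and, from 13.69, 13.79 and 13.21 to 12.29, 12.07 and 12.42, by 1.31 in SE (adjusted p = 0.000182).

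HSPA5, the ER member of the HSP70 family that holds the stress sensors silent, passed the test in SE alone. Its brighter probe set read 13.15, 13.07 and 13.26 in day 0 HE, 13.19, 13.64 and 13.22 in day 0 SE, 12.71 and 13.05 in day 7 HE and 12.57, 12.53 and 12.85 in day 7 SE. All day 7 pools lay below all day 0 pools, the nearest being pool 2 of day 7 HE. HSPA5 fell in SE, by 0.70 ± 0.17 (adjusted p = 0.00615 in limma), and on the dimmer one by 0.96 (adjusted p = 0.00685). In HE the differences were -0.28 ± 0.19 (adjusted p = 0.249) and -0.25 ± 0.26 (adjusted p = 0.477). The HE and SE changes of HSPA5 were not shown to differ: the interaction of status and day had no member past the threshold.

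HSP90B1, the ER member of the HSP90 family, read 13.36, 13.37 and 13.29 in day 0 HE and 12.33 and 12.58 in day 7 HE. In SE it went from 13.52, 14.04 and 13.39 to 11.97, 11.70 and 12.11. The day 0 SE pools were the highest of the 4 groups and the day 7 SE pools the lowest, with no overlap between groups. HSP90B1 fell by 0.88 ± 0.21 in HE (adjusted p = 0.00681 in limma) and by 1.72 ± 0.19 in SE (adjusted p = 4.26e-05). Without pool 1 of day 7 HE the HE difference was -0.76 (adjusted p = 0.0568), short of the threshold. The interaction was -0.84, with an unadjusted p of 0.0136 and an adjusted p of 1.00.

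Calreticulin (CALR), the soluble lectin chaperone that also buffers ER calcium, read 11.77, 11.90 and 11.67 in day 0 HE and 12.03, 12.15 and 11.82 in day 0 SE. By day 7 it was at 10.69 and 11.44 in HE and 10.37, 10.69 and 10.81 in SE. Day 7 lay below day 0 throughout, and pool 2 of day 7 HE stood above the other 4 day 7 pools. CALR fell by 1.38 in SE (adjusted p = 0.000335 in limma) and by 0.71 in HE (adjusted p = 0.0282). The HE call was lost without pool 1 of day 0 HE (-0.72, adjusted p = 0.062), pool 2 of day 0 HE (-0.65, adjusted p = 0.0781) or pool 1 of day 7 HE (-0.34, adjusted p = 0.278), and without pool 2 of day 7 HE the difference was -1.09. It was also lost with no filter on low values (adjusted p = 0.0513) and with the 2 groups fitted alone (adjusted p = 0.0621).

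ER-resident J proteins, which hand substrates to HSPA5, did not move together. DNAJC10 (ERdj5), which reduces disulfide bonds of proteins bound for degradation, read on its brighter probe set 11.12, 12.01 and 11.47 in day 0 HE and 11.96, 12.50 and 11.36 in day 0 SE. On day 7 all 5 pools were between 9.75 and 10.06. DNAJC10 fell by 1.52 in HE (adjusted p = 0.0036 in limma) and by 2.09 in SE (adjusted p = 0.000208). Its dimmer probe set fell by 1.92 in SE and by 1.05 in HE (adjusted p = 0.0379), a call lost without pool 2 of day 0 HE (-0.85, adjusted p = 0.114), pool 3 of day 0 HE (-1.08, adjusted p = 0.0688), pool 1 of day 7 HE (-1.04, adjusted p = 0.123) or pool 2 of day 7 HE (-1.05, adjusted p = 0.129). DNAJC3 (p58IPK), a BiP partner and inhibitor of the kinase PERK, read 9.96, 10.99 and 9.93 in day 0 SE and 9.31, 9.20 and 9.20 in day 7 SE. DNAJC3 fell by 1.06 in SE (adjusted p = 0.0074), and in HE the difference was -0.62 (adjusted p = 0.114).

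DNAJB9 (ERdj4), a classical target of the XBP1 arm, went the other way. It read 10.66, 11.07 and 10.43 in day 0 SE and 11.42, 10.998 and 11.87 in day 7 SE, so the groups overlapped. DNAJB9 rose by 0.71 in SE (adjusted p = 0.0414 in limma), a call lost without pool 1 or 3 of day 0 SE or pool 1 or 3 of day 7 SE (0.68, 0.57, 0.72 and 0.49, adjusted p between 0.0827 and 0.15). In HE the DNAJB9 difference was 0.62 (adjusted p = 0.106). DNAJB11 (ERdj3) stayed between 5.17 and 5.60 in all 11 pools, and its differences were -0.02 and -0.15.

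**Figure D2:**
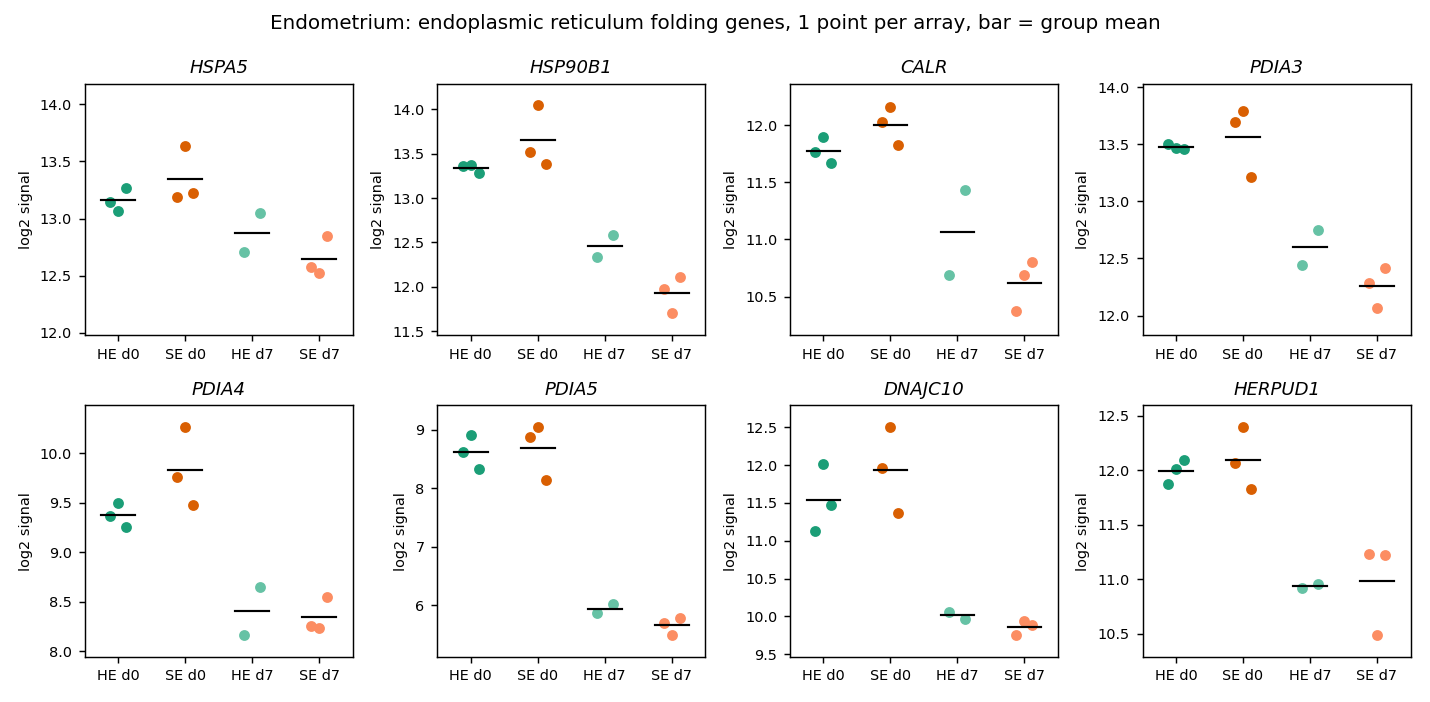
log2 signal of 8 genes of ER folding and degradation, with 1 point per pool and a bar at each group mean, for HE and SE endometrium on day 0 and day 7. Day 7 pools lie below day 0 pools in every panel, with the narrowest gap in HSPA5, and pool 2 of day 0 SE is the highest point for HSPA5 (13.64), HSP90B1 (14.04) and DNAJC10 (12.50).

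Likeness to HSPA5 (its brighter probe set) over the 11 endometrium arrays was described by Pearson's r on the log2 signal. Among genes outside the set the closest were SH3BGRL2 (r = 0.974), the ER calcium pump gene ATP2A2 (0.961) and TMED7 (0.944), which encodes a cargo receptor of the early secretory route. Among members HSP90B1 (0.946), PDIA4 (0.929), CALR (0.919) and PDIA3 (0.913) were closest. All these probe sets share the same arrays and the same day difference.

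The degradation and stress genes split. HERPUD1, an ER membrane protein that is strongly induced by ER stress and assembles the degradation complex, read 11.87, 12.01 and 12.09 in day 0 HE and 12.07, 12.39 and 11.83 in day 0 SE. By day 7 it was at 10.92 and 10.96 in HE and 11.23, 10.49 and 11.22 in SE. Every day 7 pool was below every day 0 pool. HERPUD1 fell by 1.05 in HE (adjusted p = 0.00594 in limma) and by 1.12 in SE (adjusted p = 0.00194).

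SYVN1 (HRD1), the ubiquitin ligase that HERPUD1 assists, moved the opposite way. It read 8.96, 8.98 and 9.06 in day 0 HE and 8.82, 9.86 and 8.58 in day 0 SE, with pool 2 of day 0 SE well above the other 5. On day 7 it was at 10.73 and 11.24 in HE and 11.17, 10.97 and 10.85 in SE, above all day 0 pools. SYVN1 rose by 1.99 in HE (adjusted p = 0.000797 in limma) and by 1.91 in SE (adjusted p = 0.000406).

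DDIT3 (CHOP), the transcription factor at the end of the PERK arm, lay between 6.40 and 6.58 in all 6 day 0 pools and between 7.17 and 7.79 in all 5 day 7 pools. DDIT3 rose by 0.84 in HE (adjusted p = 0.00386 in limma) and by 1.01 in SE (adjusted p = 0.000535). ATF4, which drives DDIT3, read 10.96, 10.85 and 10.69 in day 0 HE and 10.31 and 10.36 in day 7 HE. Its HE difference of -0.50 had an adjusted p of 0.0454, and leaving out any 1 of the 5 HE pools raised its adjusted p above the threshold (adjusted p between 0.0506 and 0.156, differences between -0.44 and -0.57), as did the lack of a filter (adjusted p = 0.0522). In SE ATF4 differed by -0.37 (adjusted p = 0.0843), with overlapping groups.

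Calnexin (CANX), the membrane-bound lectin chaperone, moved against calreticulin. Its brighter probe set read 11.23, 11.01 and 11.16 in day 0 HE and 11.22, 11.60 and 11.03 in day 0 SE. On day 7 it read 11.88 and 12.87 in HE and 12.10, 11.95 and 12.24 in SE, all above day 0, with pool 2 of day 7 HE highest. CANX rose by 1.25 in HE (adjusted p = 0.00437 in limma) and by 0.82 in SE (adjusted p = 0.0187). Without pool 2 of day 7 HE the HE rise was 0.75 and still past the threshold. The SE call was lost without pool 1 of day 0 SE (0.78, adjusted p = 0.0526), pool 3 of day 0 SE (0.69, adjusted p = 0.067) or pool 3 of day 7 SE (0.74, adjusted p = 0.0617), and in the mean over the gene's probe sets (0.65, adjusted p = 0.0929). The dimmer CANX probe set differed by 1.16 in HE (adjusted p = 0.041), but it rested on pool 2 of day 7 HE (7.14 against 5.47 in pool 1), without which the difference was 0.32 (adjusted p = 0.45). Its call was also lost without pool 1, 2 or 3 of day 0 HE (1.27, 0.94 and 1.26), and without pool 1 of day 7 HE the difference was 1.99.

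The SEC61 channel has a core alpha subunit, made by SEC61A1 or SEC61A2, and the small beta and gamma subunits. Of the 4 tested probe sets of SEC61A2, 3 rose by 1.65 to 1.83 in HE and by 1.89 to 2.19 in SE. The dimmest was also called higher, but it was tested only through day 7 (4.09 to 5.06). Its day 0 pools read 2.29 to 2.83, under the filter, so neither a size nor support is read from it. The brightest read 6.24, 6.51 and 6.03 in day 0 HE, 6.42, 6.01 and 6.33 in day 0 SE, 8.19 and 7.98 in day 7 HE and 8.28, 7.88 and 8.63 in day 7 SE. The days were widely apart and the health groups overlapped within each day. The rise of SEC61A2 on this probe set was 1.83 in HE (adjusted p = 0.00019 in limma) and 2.01 in SE (adjusted p = 3.63e-05). These probe sets read 1 gene and are not separate evidence. SEC61A1, the other alpha subunit gene, differed by -0.07 in HE and -0.45 in SE (adjusted p = 0.823 and 0.0844). SEC61G, the gamma subunit, differed by 0.18 and 0.20 (adjusted p = 0.33 and 0.217). SEC61B fell by 0.44 in SE (adjusted p = 0.0289), a call lost without pool 2 or 3 of day 0 SE (-0.43 and -0.42) or pool 1 or 3 of day 7 SE (-0.35 and -0.41).

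**Figure D3:**
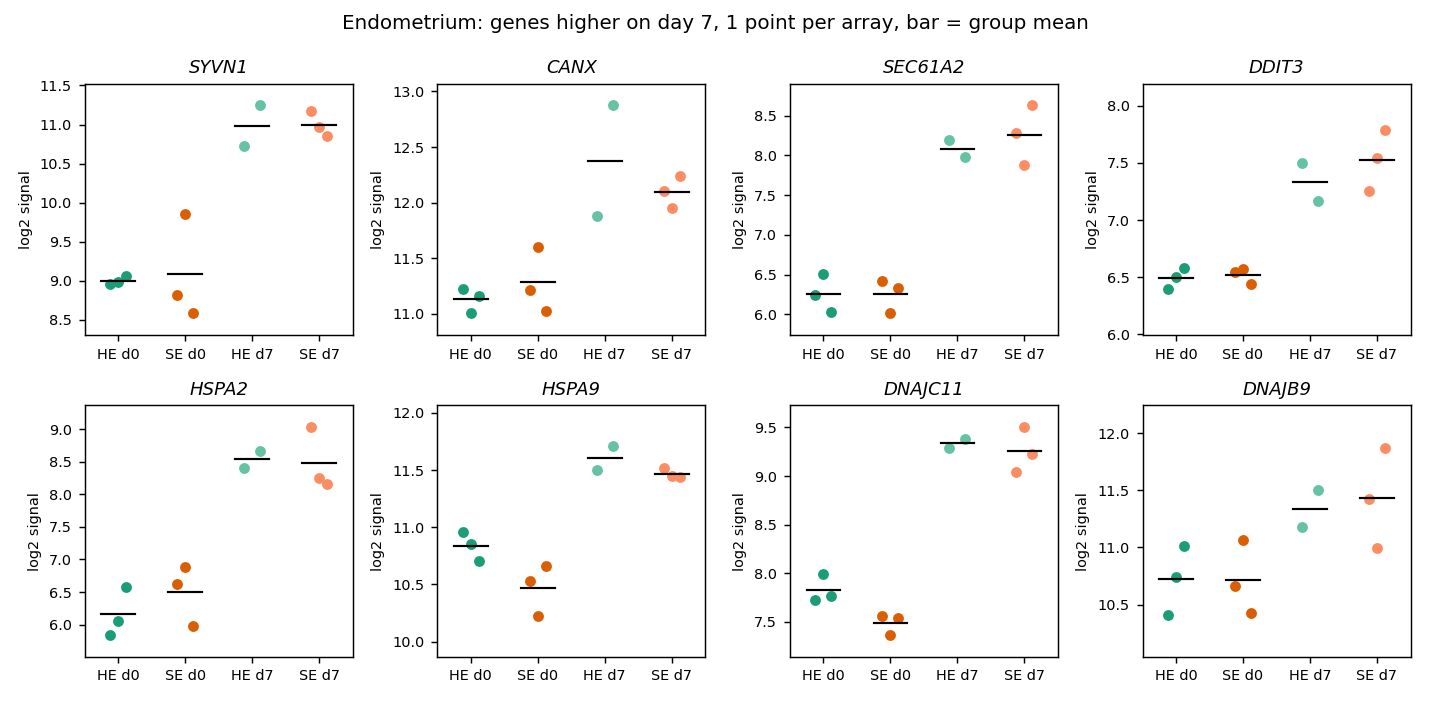
log2 signal of 8 members with higher group means on day 7, with 1 point per pool and a bar at each group mean, for HE and SE endometrium on day 0 and day 7. SYVN1, CANX, SEC61A2, DDIT3, HSPA2, HSPA9 and DNAJC11 show a gap between all day 0 and all day 7 pools, while DNAJB9 overlaps between the days in SE and its HE difference did not pass the test.

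All 4 tested HSP90 probe sets, those of the cytosolic forms and of HSP90B1, fell in both groups. HSP90AA1, the inducible cytosolic HSP90, read on its dimmer probe set 12.95, 12.52 and 12.91 in day 0 HE, 12.55, 12.39 and 12.61 in day 0 SE, 11.41 and 11.69 in day 7 HE and 11.13, 11.29 and 11.84 in day 7 SE. The days did not overlap. HSP90AA1 fell by 1.24 in HE (adjusted p = 0.00164 in limma) and by 1.10 in SE (adjusted p = 0.00145), and on the brighter one by 0.69 and 0.61. HSP90AB1, the constitutive form, fell by 0.77 in HE (adjusted p = 0.00484) and by 0.51 in SE (adjusted p = 0.0202). The SE call was lost without pool 1 of day 0 SE (-0.41), pool 3 of day 0 SE (-0.45) or pool 2 of day 7 SE (-0.47).

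The CCT ring folds actin and tubulin. CCT3, CCT4, CCT5, CCT6A and CCT8 fell in both groups, while CCT2 differed by -0.29 in HE and -0.18 in SE and did not pass. CCT4 read 12.40, 12.31 and 12.27 in day 0 HE and 11.33 and 11.17 in day 7 HE, and in SE 12.29, 11.84 and 12.33 against 11.11, 11.26 and 11.34. CCT4 fell by 1.08 in HE (adjusted p = 0.00074 in limma) and by 0.92 in SE (adjusted p = 0.000831). CCT3, CCT6A and CCT8 fell by 0.72 to 0.84 in HE and by 0.51 to 0.75 in SE. CCT5 fell by 0.57 and 0.38. Its HE call was lost without pool 2 of day 7 HE (-0.49, adjusted p = 0.0935), and its SE call without any 1 SE pool other than pool 2 of day 0 SE (-0.28 to -0.43, adjusted p between 0.0577 and 0.156).

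HSPD1 (HSP60) and HSPE1 (HSP10) form the chaperonin of the mitochondrial matrix and did not follow the CCT genes. HSPD1 differed by 0.18 in HE and 0.41 in SE (adjusted p = 0.459 and 0.0614 in limma), and HSPE1 by -0.28 and 0.03. HSPA9 (mortalin), the mitochondrial HSP70, rose. It read 10.96, 10.85 and 10.71 in day 0 HE and 11.50 and 11.71 in day 7 HE, and in SE 10.53, 10.22 and 10.66 against 11.52, 11.44 and 11.44. All day 7 pools were above all day 0 pools. HSPA9 rose by 0.77 in HE (adjusted p = 0.00386) and by 1.00 in SE (adjusted p = 0.000326). DNAJC11, a J protein of the mitochondrial outer membrane, read 7.36 to 7.99 over the day 0 pools and 9.05 to 9.50 over the day 7 pools and rose by 1.51 in HE (adjusted p = 6.66e-05) and by 1.77 in SE (adjusted p = 8.48e-06). DNAJC19, a J protein of the mitochondrial import motor, rose by 0.79 in SE (adjusted p = 0.0199), where pool 2 of day 0 SE was lowest (9.18 against 10.05 and 10.06). Without that pool the rise was 0.49 and still past the threshold, and without pool 2 of day 7 SE the call was lost (0.74, adjusted p = 0.0587).

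Members of the cytosolic HSP70 family differed among themselves. HSPA8 (HSC70), the constitutive form, read 14.50, 14.52 and 14.69 in day 0 HE, 14.47, 14.29 and 14.61 in day 0 SE, 13.76 and 13.76 in day 7 HE and 13.63, 13.81 and 13.93 in day 7 SE. The days did not overlap, and HSPA8 fell by 0.81 in HE (adjusted p = 0.00182 in limma) and by 0.67 in SE (adjusted p = 0.00243). HSPA1A, the classical stress-induced HSP70, had 5 tested probe sets and none passed in either group. On the brightest it read 10.93, 11.31 and 12.52 in day 0 HE, 11.67, 11.73 and 11.01 in day 0 SE, 11.60 and 11.61 in day 7 HE and 11.60, 11.54 and 11.91 in day 7 SE. Pool 3 of day 0 HE was the highest of the 11, and the HSPA1A differences were 0.02 in HE and 0.21 in SE with standard errors of 0.40 and 0.36.

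HSPA2, an HSP70 best known from the testis, showed the steepest rise of the set in HE. It read 5.84, 6.06 and 6.57 in day 0 HE and 8.41 and 8.66 in day 7 HE, and in SE 6.62, 6.88 and 5.98 against 9.03, 8.25 and 8.16. HSPA2 rose by 2.38 ± 0.34 in HE (adjusted p = 0.000338 in limma), a 5.20-fold increase, and by 1.99 ± 0.30 in SE (adjusted p = 0.000413). HSPH1 (HSP105), a nucleotide exchange factor of HSP70, differed by -0.90 in HE on its brightest probe set (adjusted p = 0.0385). That call was lost without pool 1 or 3 of day 0 HE (-0.98 and -0.67) or pool 1 or 2 of day 7 HE (-0.81 and -0.99), and in SE HSPH1 differed by -0.45 (adjusted p = 0.201). HSPA4, another exchange factor, fell on its brighter probe set by 0.77 in HE and 0.91 in SE (adjusted p = 0.00719 and 0.00121), but the dimmer one gave 0.32 and 0.04, and the mean of both fell short in HE (-0.22, adjusted p = 0.327). HSPA14, an HSP70 that works at the ribosome, fell on its brighter probe set by 0.76 in HE (adjusted p = 0.0051) and by 0.42 in SE (adjusted p = 0.0419). The HE call was lost without pool 2 of day 7 HE (-0.62, adjusted p = 0.0535), and the SE call without any 1 of the 6 SE pools (-0.39 to -0.46). On the dimmer probe set HSPA14 fell by 0.91 and 0.65, calls lost without pool 1 or 3 of day 0 HE or pool 2 of day 7 HE (-0.80, -0.86 and -0.72) and without any 1 SE pool other than pool 2 of day 0 SE (-0.41 to -0.72).

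Among the remaining J proteins DNAJC24 fell most. It is needed for the diphthamide modification of elongation factor EEF2 and is no general chaperone. Its brighter probe set read 7.33, 7.20 and 7.28 in day 0 HE, 7.24, 7.02 and 7.12 in day 0 SE, 4.9995 and 3.85 in day 7 HE and 4.52, 5.01 and 5.16 in day 7 SE. DNAJC24 fell by 2.84 ± 0.30 in HE (adjusted p = 4.75e-05 in limma) and by 2.23 ± 0.27 in SE (adjusted p = 8.41e-05), and on the dimmer one by 2.36 and 2.13. The 3.85 of pool 2 of day 7 HE is under the filter of 4. The HE size is therefore uncertain, and it ran from -3.41 to -2.27 over the alternative settings. DNAJA4, a cytosolic HSP70 partner, read 8.45 to 8.92 over the day 0 pools and 6.92 to 7.52 over the day 7 pools and fell by 1.42 in HE and 1.33 in SE (adjusted p = 0.00036 and 0.000204). DNAJC18 fell by 1.49 in SE (adjusted p = 0.00265), and in HE the difference was -0.82 (adjusted p = 0.0786). DNAJB5 was tested only through 2 day 7 SE pools (4.24 and 4.31). Its other day 7 pools read 3.26 to 3.54 and its day 0 pools 2.17 to 2.70, all under the filter, so no size is read from its calls as higher. Its HE call was lost without pool 1 of day 0 HE or either day 7 HE pool. DNAJB1, the main partner of inducible HSP70, differed by -0.37 in HE and -0.09 in SE (adjusted p = 0.224 and 0.747). DNAJC13 fell by 0.50 in HE and 0.41 in SE, calls lost without pool 3 of day 0 HE or either day 7 HE pool (-0.47, -0.43 and -0.57) and without pool 1 or 3 of day 0 SE or of day 7 SE (-0.34 to -0.42). DNAJC17 fell by 0.77 in HE, a call lost without pool 1 or 2 of day 0 HE (-0.69 and -0.72) or pool 2 of day 7 HE (-0.52). DNAJC9 rose by 0.66 in SE, a call lost without pool 2 or 3 of day 0 SE (0.47 and 0.62) or pool 2 or 3 of day 7 SE (0.71 and 0.49). The small heat shock protein genes HSPB1, HSPB6 and HSPB8 had no call in either group, with HE differences of -0.25, -0.72 and -0.09 and SE differences of -0.31, -1.17 and -1.24.

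The wider pathway was described with lists of genes outside the set. In every list each gene was read by its brightest tested probe set, while the shares of all count every tested probe set. The 2 kinds of share are therefore not like for like, and no excess was tested. Of 44 tested genes of the unfolded protein response, ER folding and ER-associated degradation, 17 fell and 4 rose in HE (median -0.34), which is 38.6% and 9.09% against 23.2% and 21.8% of all probe sets. In SE 23 fell and 4 rose (median -0.46), 52.3% and 9.09% against 24.1% and 26%. Those that fell included MANF, a secreted ER stress protein (-1.41 in HE, -1.54 in SE), SERPINH1, the collagen chaperone HSP47 (-2.45 and -2.48), KDELR3, a receptor that returns chaperones to the ER (-1.99 and -3.00), and MBTPS2, the protease that releases ATF6 (-2.19 and -1.70). The 4 that rose in each group were NUPR1, a stress-induced chromatin protein (6.15 and 5.92), ERO1A, the oxidase that recharges the disulfide isomerases (3.47 and 3.46), CREB3L2, a membrane-bound transcription factor of secretory cells (2.36 and 1.80), and MBTPS1 (0.73 and 0.75). HYOU1, the large ER HSP70, fell in SE (-1.11), and its HE difference was -0.54.

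Of 25 tested genes of signal sequence recognition, translocation, signal cleavage and glycan transfer, 11 fell and 2 rose in HE (median -0.35), which is 44% and 8% against 23.2% and 21.8% of all probe sets. In SE 13 fell and 2 rose (median -0.46), 52% and 8% against 24.1% and 26%. The oligosaccharyltransferase subunit gene RPN2 fell by 1.90 and 1.99, and the signal peptidase gene SEC11C by 1.85 and 1.24. SEC62 and SRP9 were the pair that rose, by 0.58 and 0.68 in HE and by 0.61 and 0.68 in SE. Of 39 cytosolic and mitochondrial chaperone partners, 10 fell and 3 rose in HE (median -0.13), 25.6% and 7.69%, the share that fell being near the 23.2% of all. In SE 6 fell and 7 rose (median -0.04), 15.4% and 17.9%, both under the shares of all (24.1% and 26%). FKBP5, an HSP90 partner and known steroid hormone target, rose by 3.27 and 3.13, the small heat shock protein gene CRYAB fell by 3.65 and 3.57, and the HSP70 partner BAG3 rose by 1.12 and 1.09.

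Health status was then compared within each day. On day 0 none of the 82 member probe sets passed the threshold in SE over HE, against 0.0224% of all 13421 in limma, and the smallest adjusted p of a member was 0.622. At an unadjusted p under 0.05 there were 3 members (3.66%, against 7.6% of all), all lower in SE (5.1% of all): HSPA9 (-0.37), DNAJC7 (-0.71) and DNAJC11 (-0.34). The highest-ranked members on the other side were DNAJC10 (0.69 on its dimmer probe set), HSPB6 (0.96) and PDIA4 (0.46 on its brighter probe set). Without pool 2 of day 0 SE these were 0.31, 0.27 and 0.25, and HSPA9 was at -0.24. Of the members 2 had all SE pools above all HE pools and 6 had them below, against 3.58% and 9.24% of all probe sets (2.44% and 7.32% of members). The 8 chaperonin genes were all lower in SE, by 0.09 to 0.28, with none past the threshold. Pool 2 of day 0 SE was the lowest day 0 array for each of the 8. For CCT4 it read 11.84, while the other SE pools (12.29 and 12.33) lay within the HE range of 12.27 to 12.40. For CCT8 every SE pool (12.63, 12.54 and 12.76) was below HE (12.88 to 12.97).

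Pool 2 of day 0 SE was the highest of the 11 endometrium arrays for HSPA5 (on its brighter probe set), HSP90B1, CALR, PDIA3, HERPUD1, DNAJC10, DNAJC3 and PDIA4 (10.27 on its brighter probe set), and the highest day 0 array for SYVN1. This pool also had the 0.578 in the GAPDH difference, where the other day 0 SE pools were at 0.0264 and 0.14, and the lowest mean correlation with its own group of the 11 endometrium arrays (0.985). The part of either in these levels was not tested. The 5 neutrophil markers that passed, of 9 measured, were all higher in SE on day 0 (mean level 9.003 to 10.74 in SE and 7.15 to 8.98 in HE), none past the threshold. Without pool 2, the SE over HE differences of the 82 members again included none past the threshold.

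On day 7 none of the 82 members passed in SE over HE, as none did among all probe sets (0%), and 3 had an unadjusted p under 0.05 in limma (3.66%, against 3.55% of all). All 3 were lower in SE, a direction that 2.01% of all probe sets took at that p: HSPA5 on its dimmer probe set (-0.72), HSP90B1 (-0.53) and PDIA4 on its dimmer probe set (-0.88), each with an adjusted p of 1.00. Without pool 2 of day 7 HE the HSPA5 and PDIA4 differences were -0.43 and -0.25, and without pool 1 of day 7 HE they were -1.004 and -1.51. The highest-ranked members on the other side were DNAJC24 (0.47), DNAJC17 (0.36) and DNAJB5 (0.42). Without pool 2 of day 7 HE, DNAJC24 was at -0.10 and DNAJC17 at 0.11, and without pool 3 of day 7 SE DNAJB5 was at 0.23. The HSPA5 probe set read 10.25 and 10.82 in HE and 9.42, 9.82 and 10.22 in SE, the groups only just apart. Its brighter probe set gave -0.23. The protein disulfide isomerases had all 4 differences below 0 (-0.06 to -0.88) and the lectin chaperones all 3 (-0.28 to -0.80), while HERPUD1 and SYVN1 gave 0.04 and 0.01. Of the members 4 lay wholly above HE and 9 wholly below, against 7.93% and 8.33% of all (4.88% and 11% of members). All 9 epithelial markers were also lower in SE on day 7 (median -0.29), and 15 of 16 immediate-early genes were not above 0 (median -0.63); their part was not tested. The interaction of status and day had 0 members past the threshold (0% of all), and at an unadjusted p under 0.05 it had HSP90B1 alone, 1.22% of members against 3.92% of all probe sets. Next in rank below 0 were CALR (-0.67) and HSPA5 on its dimmer probe set (-0.72), at -0.29 and -0.43 without pool 2 of day 7 HE. Above 0 the first were DNAJC9 (0.62), DNAJC7 (0.80) and DNAJC17 (0.53), with DNAJC7 at 0.37 without pool 1 and DNAJC17 at 0.28 without pool 2 of day 7 HE.

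**Figure D4:**
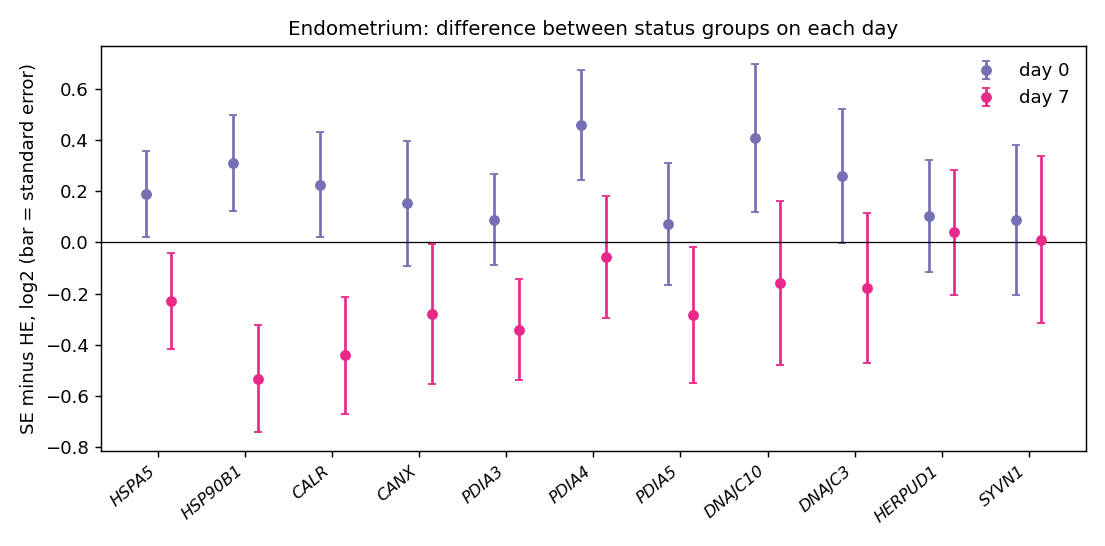
SE minus HE log2 difference on day 0 and on day 7 for 11 genes of ER folding and degradation, with limma's standard error as bars, each gene by its brightest tested probe set. HSP90B1 lies at 0.31 on day 0 and -0.53 on day 7 and CALR at 0.23 and -0.44, while HERPUD1 and SYVN1 lie between 0.01 and 0.10 on both days, and no point passed an adjusted p of 0.05. Without pool 2 of day 0 SE the day 0 values were 0.11 for HSP90B1 and 0.15 for CALR, and without pool 2 of day 7 HE CALR was at -0.0678 on day 7.

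In blastocysts the comparison asked whether the donor's status at flushing marked the embryo. None of the 75 member probe sets passed the threshold, as none of all 11014 did (0%). At an unadjusted p under 0.05 there were 12 (16%, against 9.34% of all), 9 lower (12%, against 4.8%) and 3 higher (4%, against 4.54%) in SE. Of the inner cell mass and hypoblast markers 5 of 6 passed the filter and of the trophectoderm markers 4 of 6, and 0 of 9 neutrophil and 0 of 9 macrophage markers passed. The lymphocyte markers LCK, ZAP70 and GZMB passed (3 of 11), as did the endothelial markers PECAM1 and TEK (2 of 6). All 9 epithelial markers that passed were higher in SE (median 0.22), with mean levels of 8.61 to 8.73 in HE and 8.98 to 9.44 in SE and none past the threshold, and their part in the differences that follow was not tested.

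The 9 lower members were HERPUD1, SYVN1 and 7 probe sets of J proteins. HERPUD1 read 9.32 and 9.83 in HE and 8.52, 8.67 and 8.70 in SE, with no overlap, a difference of -0.95 ± 0.20 (unadjusted p = 0.00713, adjusted p = 0.403 in limma). SYVN1, the ligase it assists, read 9.49 and 9.44 in HE and 8.89, 8.63 and 8.88 in SE, a difference of -0.66 ± 0.14 (unadjusted p = 0.0073, adjusted p = 0.403). DNAJC3 read 9.35 and 9.62 against 8.84, 9.01 and 9.01 (-0.54, adjusted p = 0.432), and DNAJB9 11.05 and 11.48 against 9.84, 10.20 and 10.83 (-0.98, adjusted p = 0.525). DNAJB1 was lower on both its probe sets, with 9.79 and 10.12 in HE and 9.48, 9.09 and 8.99 in SE on the brighter (-0.77) and a difference of -0.61 on the other. DNAJC17, DNAJC19 and DNAJB5 were the others, with differences of -0.65, -0.58 and -0.67.

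HSPB1 (HSP27), the most widely expressed small heat shock protein, was higher in SE blastocysts, at 12.10, 11.84 and 11.75 against 10.90 and 11.41 in HE (0.74, unadjusted p = 0.0248, adjusted p = 0.461 in limma). HSP90AB1 was also higher (0.65, adjusted p = 0.525), as was HSPA1A on 1 of its dimmer probe sets (0.81, adjusted p = 0.51). HSPA1A's signal turned to -0.09 in the mean over its probe sets. HSPA5, the central ER chaperone, read 13.39 and 13.82 in HE and 13.71, 13.66 and 13.66 in SE and differed by 0.07 ± 0.17. HSP90B1 and CALR differed by 0.16 and -0.25 with overlapping groups. DDIT3 was listed at 6.36 on all 5 arrays, and DNAJB11 and DNAJC5 were also constant over the 5, as were 68 of all tested probe sets, so for these the file holds no difference to test. Other members repeat 1 exact value on some arrays. HSPA5 (13.6559) and DNAJC3 (9.01211) do so in the last 2 SE pools listed, and HSPE1 (12.1287) on all arrays but 1 HE pool. Such ties can narrow the spread used in their tests, and their source was not examined.

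Of the members 5 lay wholly above HE and 14 wholly below in SE blastocysts, against 12.4% and 12.6% of all probe sets. The 3′ minus 5′ log2 difference of the GAPDH control probe sets was 4.97 to 5.11 in HE and 5.47 to 5.85 in SE blastocysts. The groups thus stood apart in GAPDH, but the same difference overlapped for the other controls. For eIF4E it was 10.69 to 10.94 in HE and 10.70 to 11.16 in SE. For cyclophilin it was 4.91 to 4.997 and 4.90 to 5.24, and for actin 3.61 to 4.72 and 3.83 to 4.03. The part of RNA completeness in the member values was not tested. In endometrium on day 7 the SE over HE differences of HERPUD1, SYVN1 and DNAJC3 were 0.04, 0.01 and -0.18.

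**Figure D5:**
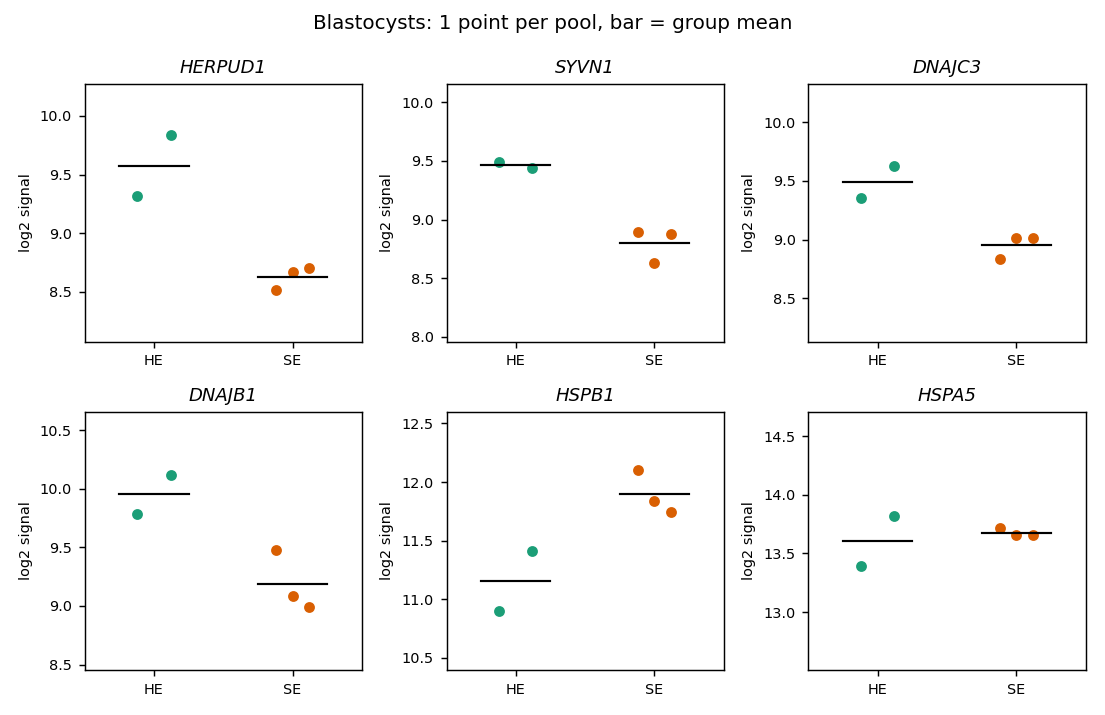
log2 signal of 6 members in blastocyst pools of HE and SE donors, with 1 point per pool and a bar at each group mean. HERPUD1, SYVN1, DNAJC3 and DNAJB1 lie lower in all 3 SE pools than in both HE pools, HSPB1 lies higher, HSPA5 overlaps, and none passed an adjusted p of 0.05.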

How the data were processed

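RNA was measured on Affymetrix bovine arrays in 11 pools of endometrium and 5 of blastocysts. The authors deposited log2 signals; per the submitters' processing notes GCRMA and limma were used, with no version or order. How the 2 tissues were grouped for normalization: not given in the sources used here. GCRMA's quantile step equalises array distributions, so a shift shared by most genes would not be seen. Tests excluded 112 control probe sets. Symbols came from the platform annotation, and a probe set with several was not used.

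Group means were compared with limma 3.58.1 in R 4.3.3 (plots: Python 3.11.15, matplotlib 3.10.9), in 1 fit over the 11 endometrium arrays and another over the 5 blastocyst arrays, after a filter that asked for log2 over 4 in 2 or more arrays of that tissue. P-values are two-sided and adjusted over all probe sets kept, with a threshold of 0.05, in 6 contrasts. The fit was tested on simulated data with the real group sizes and 100 probe sets changed by each size. Changes of 1 log2 unit were called for 47% between days in HE, 55% in SE over HE on day 0 and 3% in blastocysts. For changes of 2 the shares were 92%, 94% and 62%. The lack of calls in blastocysts therefore does not show that members were unchanged. In the real day contrast in HE 6034 of 13421 probe sets were called, far more than the simulation changed. The adjustment is less strict there, so the simulated shares between days do not describe that contrast.

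The members and lists were chosen with earlier results of these data known. In each contrast the 12 largest rises and falls past the threshold are named, filled to 3 by the smallest p, and 19 genes listed by symbol are named where a result turns on them (XBP1 and PDIA6 had no probe set); further members are named to complete a family and were chosen after their values were seen. Alternatives were no filter, a filter at 5, a further quantile normalization, an intensity trend with robust fitting, array weights, gene means, a replicate block, the compared groups alone, and each array left out in turn. Precision is limited by how few arrays each group has.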

Additional observations from a re-analysis of the deposited data

How the results depend on the processing

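The counts of called members kept within 1.5 times of their values under all alternatives run: for day 7 over day 0 in HE, 40 calls became 29 (gene means, with fewer units tested) to 42 (array weights), and in SE 44 became 34 (gene means) to 45 (intensity trend, robust). Leaving out 1 array gave 30 to 36 in HE and 38 to 41 in SE. The health comparisons, the interaction and the blastocyst comparison had 0 called members under every alternative run. Some differences that had not passed the threshold changed sign, and the cause was not tested. With a further quantile normalization these were ATF4 on day 0 (0.0269), HSPA1A in HE between days (-0.0241) and HSPE1 in SE between days (-0.0228). With array weights they were SYVN1 in SE over HE on day 0 (-0.13) and day 7 (-0.0342), DNAJB1 in SE between days (0.000806), and the interactions of HERPUD1 (0.0390) and SYVN1 (0.0919). With gene means they were HSPA1A in HE between days (-0.0237) and in blastocysts (-0.0888). Leaving out 1 array gave, on day 0, ATF4 from -0.12 to 0.12, DDIT3 from -0.0211 to 0.0671, HERPUD1 from -0.0454 to 0.24, SYVN1 from -0.30 to 0.34 and CANX from -0.00785 to 0.28. On day 7 it gave SYVN1 from -0.25 to 0.27, DNAJC24 from -0.10 to 1.04, CANX from -0.78 to 0.21, PDIA4 from -0.30 to 0.18 and HERPUD1 from -0.0854 to 0.29. Between days it gave HSPA1A from -0.31 to 0.49 in HE and from -0.0180 to 0.34 in SE, HSPE1 from -0.0538 to 0.14 and DNAJB1 from -0.21 to 0.0821 in SE. The interaction ran for HERPUD1 from -0.20 to 0.18, for SYVN1 from -0.33 to 0.31 and for CANX from -0.93 to 0.0622. In blastocysts HSPA5 ran from -0.15 to 0.28, HSP90B1 from -0.46 to 0.79 and CALR from -0.54 to 0.0423.

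The labels reuse replicate numbers across groups. Deviations from the group means correlated at -0.27 to 0.24 between arrays of the same number, over 12 pairs. With only 2 or 3 arrays per group, this cannot show whether same-numbered pools share cows or handling. With the replicate number as a block the counts were 35 in HE and 41 in SE between days and 0 in the other comparisons, and the interaction of SYVN1 was 0.0201.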
